A study of Mus musculus with 12 samples.

Results

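The deubiquitinase genes were the 71 of 24259 gene symbols whose name begins with *Usp* and a digit, *Otud*, *Otub* or *Uchl* and a digit. They comprised 56 genes named for the ubiquitin-specific proteases (USP), 10 for the ovarian tumour proteases (OTU) and 5 for the ubiquitin C-terminal hydrolases (UCH). The name is not proof of the enzyme. *Usp6nl* codes for a GTPase-activating protein, *Usp39* for an inactive splicing factor, *Usp18* for a protease of the ubiquitin-like protein ISG15, and *Uchl1os* is an antisense RNA. RNA came from germinal vesicle (GV)-stage oocytes of mice 3 weeks of age, taken 46 h after 5 IU of PMSG, a gonadotropin that drives follicle growth. WT mice and mice homozygous for the knockout-first, reporter-tagged *Lsm14b* tm1a(KOMP)Mbp allele on a C57BL/6J background (KO) were compared. LSM14B is an RNA-binding protein of the oocyte, and the KO mice carry the allele in every cell, not in oocytes alone. Lysates of about 1500 oocytes were separated on sucrose gradients. Fractions 1 to 10 formed the RNP pool, which holds mRNA with few or no ribosomes, and fractions 11 to 28 formed the polysome pool, which holds mRNA loaded with ribosomes. Each pool and genotype had 3 libraries, 12 in all, made from pooled oocytes. Smart-seq2, a method for very small amounts of RNA that does not mark the strand, is named for them, although sources differ on the library kit. Levels are FPKM, fragment numbers corrected for transcript length and library depth, as deposited, and folds are ratios of mean FPKM.

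Ubiquitin is attached to proteins by a chain of E1, E2 and E3 enzymes, and deubiquitinases take it off again. By removing or trimming ubiquitin chains they spare proteins from the proteasome, change where proteins go, reset histones and keep a store of free ubiquitin. The USP enzymes are the largest family, the OTU enzymes often prefer chains of a given linkage, and the UCH enzymes release small groups from the end of ubiquitin. In the mouse oocyte, which grows and matures with stored mRNA and little or no new transcription, protein turnover through ubiquitin is part of meiotic maturation.

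The estimated depth was 4.64 to 7.89 M (mega) fragments per library, and 10566 to 12720 genes lay above 0 FPKM. *Lsm14b* lay between 11.3 and 34.6 FPKM in the 6 WT libraries and between 0 and 0.893 in the 6 KO libraries, with no overlap in either pool, and 3 against 3 libraries allow a two-sided exact permutation p no lower than 0.1. In KO polysome replicate 2 the 10 most abundant genes held 34.7% of the summed FPKM, against 11.6% to 14.7% elsewhere. A single entry, *Mir300*, held 170809 of the 698228 FPKM summed in that library and was listed at 0 in every other library. The 12 oocyte markers summed to 24100 to 25600 FPKM in WT and 29400 to 32300 in KO polysomes, and to 7300 to 7740 in the WT and 10300 to 10600 in the KO RNP pool. *Gdf9* alone averaged 15413 FPKM in WT polysomes, and single markers differed. In KO polysomes 6 of the 12 were called higher and 1 (*Mos*) lower, beside 5.64% and 4.73% of all genes. In the KO RNP pool 7 were called higher and 1 (*Mos*) lower, beside 10.5% and 10.2% of all genes. Theca and stroma markers summed to at most 2.58 FPKM and immune markers to at most 8.71. The 14 granulosa and cumulus cell markers summed to 28.2 to 76.5 FPKM in WT polysomes and 81.2 to 103 in KO polysomes, and to 31.4 to 37.2 and 42.8 to 66.4 in the WT and KO RNP pools. The defining markers *Foxl2* and *Amh* stayed at or below 1.44 FPKM, and *Cyp19a1*, the largest part of several sums, lay between 14.6 and 62 FPKM in all 12 libraries with no call between genotypes (limma adjusted p = 0.495 in polysomes and 0.269 in the RNP pool). Of the 7 tested in polysomes, *Inha*, *Inhba* and *Fshr* were called higher in KO, beside 5.64% of all genes. Of the 4 tested in the RNP pool, *Inha* was called higher, beside 10.5% of all genes. *Inhba* and *Fshr* in polysomes and *Inha* in the RNP pool were tested only through the KO libraries, where they were high. The part of this shift in the results below was not tested. Bulk libraries cannot tell fewer cells from less RNA per cell, and FPKM gives only shares of each pool.

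Deubiquitinase mRNA was dominated by a single gene. *Uchl1*, on chromosome 5 (chr5:66676091-66687234, plus strand, GRCm38), codes for a hydrolase known for its abundance in neurons and germ cells. It stood at 1897, 1898 and 2090 FPKM in WT polysomes, 3029, 2367 and 2267 in KO polysomes, 614, 562 and 539 in the WT RNP pool, and 1063, 1157 and 1128 in the KO RNP pool. This put it 15th to 22nd among all genes in WT polysomes and 80th to 94th in the WT RNP pool. It held 57.6% to 61.4% of the summed FPKM of the 71 genes in WT polysomes and 59.3% to 67.6% in KO polysomes. Its share was 26% to 30.9% in the WT RNP pool and 42.2% to 44.7% in the KO RNP pool. About 20.7% of its exonic bases are shared with the antisense *Uchl1os*, which was listed at 0.0919 to 2.40 FPKM.

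Far below it came *Usp46*, whose enzyme works with the WD-repeat proteins WDR48 and WDR20. It read 273, 269 and 264 FPKM in WT polysomes, 302, 399 and 331 in KO polysomes, 262, 337 and 299 in the WT RNP pool, and 336, 322 and 389 in the KO RNP pool. *Otub1*, which cuts lysine-48 chains and also blocks the E2 enzyme UBE2N, followed with 156, 163 and 177 FPKM in WT polysomes, 214, 204 and 196 in KO polysomes, 129, 143 and 108 in the WT RNP pool, and 184, 151 and 179 in the KO RNP pool. Every *Usp46* library thus lay above every *Otub1* library. These 3 genes alone averaged at least 100 FPKM over the 12 libraries, and 27 others averaged between 10 and 100. A further 24 lay between 1 and 10, 12 below 1, and 5 were listed at 0 in all 12 libraries. The 5 were *Otud6a*, *Usp17la*, *Usp17ld*, *Usp18* and the Y-linked *Usp9y*. The median of the 71 averages was 7.42 FPKM.

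**Figure D1:**
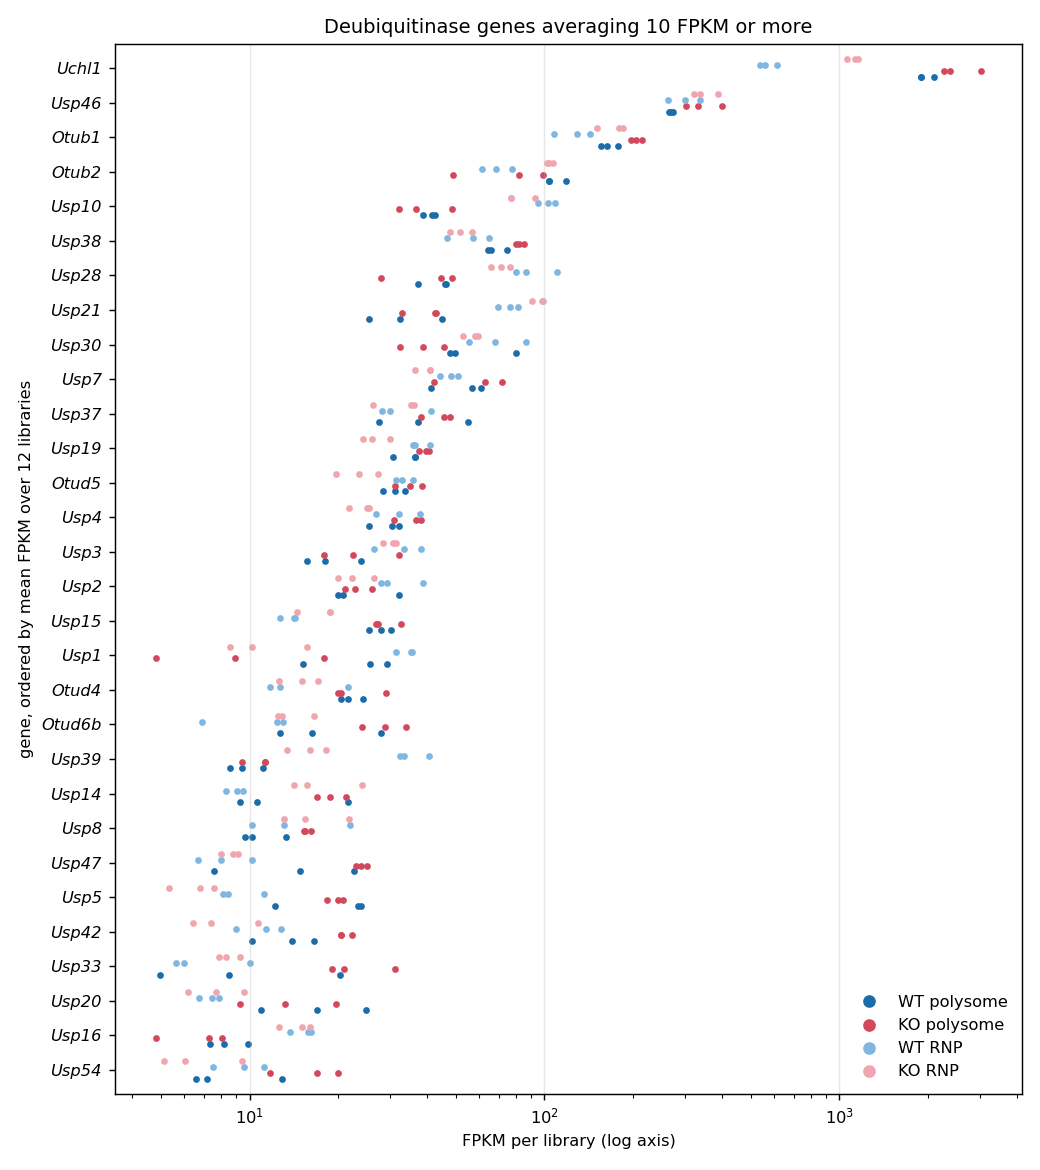
FPKM on a log axis for the 30 genes that averaged 10 FPKM or more, 1 point per library, coloured by genotype and pool. *Uchl1* stands alone at 539 to 3029 FPKM, *Usp46* and *Otub1* lie between 108 and 399, and most others lie between 5 and 100.

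The USP enzymes that act on chromatin spanned a wide range of levels. *Usp21*, an enzyme of histone H2A, averaged 61.4 FPKM, *Usp7*, known for MDM2 and for the DNA methylation factor UHRF1, 49.8, and *Usp3* 26.5. *Usp16*, which acts on histone H2A at mitosis, averaged 11.2 FPKM, and *Usp22*, the enzyme of the SAGA coactivator complex, 6.40. *Usp44*, known for the spindle checkpoint, was listed at 0 in 9 of 12 libraries and reached 2.07 FPKM in KO polysome replicate 2. Of the enzymes bound to the proteasome, *Usp14* averaged 14.9 and *Uchl5* 4.13 FPKM. *Usp9x*, a large X-linked enzyme of endosomes and signalling, averaged 8.69 FPKM.

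Closely related enzymes were unevenly represented. *Usp46* lay between 262 and 399 FPKM and its relative *Usp12* between 0 and 3.96. *Usp28*, known for stabilising MYC, lay between 28.0 and 110 FPKM, while its relative *Usp25* did not exceed 0.0612. *Usp5*, which takes apart free ubiquitin chains, stood at 5.35 to 23.9 FPKM against 0 to 3.19 for *Usp13*. The same order in all 12 libraries held for *Usp37* over *Usp29* and *Usp26*, *Usp38* over *Usp35*, *Usp16* over *Usp45*, *Usp4* over *Usp11*, *Otub1* over *Otub2* and *Usp49* over *Usp44*. Of the exonic bases of *Usp49*, 54.4% overlap *Gm20517* or *Tomm6*, so its own level is uncertain. Some pairs showed no fixed order, since *Usp20* exceeded *Usp33* in 6 of 12 libraries and *Usp22* exceeded *Usp27x* in 5. *Uchl3* and its near copy *Uchl4* alternated too, and the 100-base runs shared by the pair (15.0% of the *Uchl3* transcript, 11.4% of the *Uchl4* transcript) leave their split uncertain.

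The last bases of an oocyte mRNA can carry a cytoplasmic polyadenylation element, a U-rich stretch read by CPEB1 that tunes the poly(A) tail during maturation. The letters TTTTAT and TTTTAAT, neither of which contains the other, were searched on the transcript strand in the last 100 bases of 1 representative GENCODE M21 transcript per protein-coding gene. They were present in 6 of 70 deubiquitinase genes (8.57%) against 17.0% of 19774 genes. Among the genes tested for any difference, 4 of 56 deubiquitinase genes and 19.5% of 10097 genes had them. AATAAA or ATTAAA, the signals of nuclear polyadenylation, stood in the last 40 bases of 71.4% of the deubiquitinase genes and 71.2% of all genes. The 4 tested genes with the U-rich letters, and for contrast the polyadenylation signals of *Uchl1* and *Usp10*, of which the first was higher and the second lower in WT polysomes than in the WT RNP pool, are shown over 30 bases with the matched letters in capitals, 5′ to 3′ in DNA letters. A match describes the sequence and is not evidence of a site.
Usp28: caactatgcaggTTTTATaaatgtgcaata
Usp7: gctTTTTAATaaccgtctctctttgtcagc
Usp22: atcataataaagctgcaTTTTATtctgaaa
Uchl3: ctaactcaaaatTTTTAATattttcattaa
Uchl1: cttaagaggaagAATAAAactttgctggtg
Usp10: ttgtcacccatcAATAAAgatcacaaagtt
The matched letters begin 38 bases before the transcript end in *Usp28*, 97 in *Usp7*, 13 in *Usp22*, 64 in *Uchl3*, 27 in *Uchl1* and 21 in *Usp10*. The genes lie at chr9:48985375-49042517 (*Usp28*), chr16:8689595-8792308 (*Usp7*), chr11:61151785-61175055 (*Usp22*), chr14:101653967-101696125 (*Uchl3*) and chr8:119910360-119957560 (*Usp10*) on GRCm38.

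Each difference was tested with limma on log2(FPKM + 1), on genes that reached 1 FPKM in 3 or more of the libraries compared, and called at a Benjamini-Hochberg adjusted p under 0.05 over all genes tested. Fold changes on this scale understate those of low genes. Of the 71 genes, 51 passed this filter in all 5 comparisons and 14 in none. The 14 were the 5 listed at 0 and *Usp13*, *Usp25*, *Usp35*, *Usp44*, *Usp50*, *Otud7a*, *Usp17lb*, *Usp17lc* and *Usp17le*. The libraries were labelled only as replicates, so the p-values measure the spread between libraries, which may be technical in part.

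The first question was whether loss of LSM14B changed deubiquitinase mRNA on polysomes. In polysomes 1 of the 54 genes tested was called (1.9%), against 10.4% of 9536 genes in all (5.64% higher and 4.73% lower in KO). The libraries of the genotypes did not overlap for 15 of the 54 genes, 27.8%, against 31.7% of all genes. The gene called was *Usp36*, whose enzyme sits in the nucleolus and protects ribosome synthesis. It read 6.06, 2.54 and 5.46 FPKM in WT polysomes and 14.3, 13.1 and 15.9 in KO polysomes, with no overlap. The difference was 1.50 ± 0.40 (SE) on the log2 scale (limma adjusted p = 0.0477). In the RNP pool it read 5.65, 8.87 and 4.19 FPKM in WT and 8.60, 12.5 and 11.5 in KO, where the ranges overlapped and the adjusted p was 0.132. The *Usp36* call in polysomes was lost whichever of the 6 libraries was left out, and its adjusted p over all alternatives lay between 0.0372 and 0.160. Leaving out WT polysome replicate 1 called *Usp33* instead and leaving out WT polysome replicate 2 called *Usp22*.

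At an unadjusted p under 0.05, 10 of the 54 genes differed in polysomes, 7 higher and 3 lower in KO, compared with 2505 of the 9536 genes. The median change of the 54 genes was 0.17 against 0.10 for all genes. The largest uncalled change was that of *Usp51*, a relative of *Usp22*, at -1.74 ± 0.55 (SE, limma adjusted p = 0.0807), with 2.95, 7.5 and 1.73 FPKM in WT and 0, 0.286 and 0.908 in KO, so it was tested only through its WT libraries. *Usp22* went the other way, from 1.16, 8.78 and 1.91 FPKM in WT to 10.5, 14.4 and 7.95 in KO, but WT replicate 2 lay within the KO range and the adjusted p was 0.140. *Otud1*, an OTU enzyme, read 2.58, 4.15 and 5.80 FPKM in WT and 0, 1.00 and 2.82 in KO, and its ranges also overlapped (adjusted p = 0.184). *Uchl1* did not overlap between genotypes in polysomes, where KO was 1.30-fold of WT, yet its change of 0.37 ± 0.12 (SE) missed the threshold (adjusted p = 0.0846).

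In the RNP pool 11 of 54 genes were called (20.4%), close to the 20.7% of 9931 genes in all. The libraries did not overlap for 28 of the 54 genes, 51.9%, against 39.2% of all genes. Of the 11 called, 7 rose in KO (13%, against 10.5% of all genes) and 4 fell (7.4%, against 10.2%). The median change of the 54 genes was -0.04 against 0.05 for all genes. *Uchl1* rose from 572 ± 38.4 to 1116 ± 48.2 FPKM (SD, n = 3 each), 1.95-fold, with every KO library at 1063 or above and every WT library at 614 or below. Its log2 change was 0.96 ± 0.07 (SE, limma adjusted p = 5.93e-05). Of the other UCH enzymes, *Uchl5* differed by -0.22 ± 0.46 (SE, adjusted p = 0.785) and *Uchl4* by 0.49 ± 0.32 (adjusted p = 0.323). *Uchl3*, which can process ubiquitin and NEDD8 precursors, read 4.57, 1.70 and 0.882 FPKM in WT and 8.69, 7.91 and 10.4 in KO (log2 change 1.71 ± 0.43, limma adjusted p = 0.0204), with its split from *Uchl4* uncertain.

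Both OTU enzymes of the *Otub* pair rose in the KO RNP pool. *Otub2*, which prefers lysine-63 chains, read 68.3, 61.6 and 77.5 FPKM in WT and 107, 102 and 104 in KO, a change of 0.59 ± 0.13 (SE, limma adjusted p = 0.0110). *Otub1* rose by 0.44 ± 0.13 (SE, adjusted p = 0.0483), and its highest WT library, 143 FPKM, lay just under its lowest KO library, 151. Among 8 OTU genes tested these 2 were called higher and none lower, beside 10.5% and 10.2% of all genes. *Otud3* showed the largest uncalled rise, from 3.15, 2.34 and 0 to 5.10, 5.94 and 11.3 FPKM (adjusted p = 0.0560).

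*Usp22*, *Usp31* and *Usp14* also rose in the KO RNP pool. *Usp22* read 2.78, 2.21 and 3.40 FPKM in WT and 7.83, 7.32 and 8.58 in KO, a change of 1.24 ± 0.30 (SE, limma adjusted p = 0.0184). *Usp31*, an enzyme linked to NF-κB signalling, read 3.89, 4.05 and 3.83 in WT and 13.5, 9.94 and 8.94 in KO, also 1.24 with an SE of 0.28 (limma adjusted p = 0.0145). *Usp14* read 9.03, 9.49 and 8.31 in WT and 14.2, 24.0 and 15.6 in KO (limma adjusted p = 0.0375). Of its exonic bases, 45.9% are shared with *Thoc1* on the opposite strand, where unstranded reads of the pair cannot be told apart.

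The 4 genes that fell in the KO RNP pool were *Usp51*, *Usp53*, *Usp1* and *Usp39*, and in each every KO library lay below every WT library. *Usp1*, which with WDR48 takes ubiquitin off PCNA and FANCD2 in DNA repair, read 35.2, 35.6 and 31.4 FPKM in WT and 15.6, 8.58 and 10.2 in KO. Its fall was 1.53 on the log2 scale, from 34.1 ± 2.33 to 11.5 ± 3.69 FPKM (SD, n = 3 each, limma adjusted p = 0.00261). *Usp53*, a protein of cell junctions whose catalytic activity has been disputed, read 15.2, 19.6 and 15.4 in WT and 4.98, 4.45 and 3.34 in KO (log2 change -1.76 ± 0.27, limma adjusted p = 0.0023). *Usp39*, the inactive member that assembles the spliceosome, read 32.4, 33.3 and 40.6 in WT and 18.2, 13.4 and 16.0 in KO (log2 change -1.12 ± 0.20, limma adjusted p = 0.00454). *Usp51* read 5.83, 14.1 and 6.86 in WT and 0.256, 0 and 0 in KO (log2 change -3.11 ± 0.41, limma adjusted p = 0.00111). In this pool too, *Usp51* entered the test only through its WT libraries, so its difference was in part a condition of being tested. Of 9 chromatin enzymes tested, *Usp22* thus rose and its relative *Usp51* fell, beside 10.5% and 10.2% of all genes, and 7 were not called. *Otud1* and *Usp11* showed the largest falls that were not called, at -1.19 ± 0.58 (adjusted p = 0.181) and -1.08 ± 0.34 (adjusted p = 0.0551).

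Polysome levels of the 4 genes that fell were read beside these. *Usp1* stood at 25.7, 29.2 and 15.2 FPKM in WT polysomes and 4.81, 8.95 and 17.9 in KO polysomes (log2 change -1.19 ± 0.47, limma adjusted p = 0.146). *Usp53* stood at 6.69, 5.87 and 12.6 in WT and 2.05, 5.44 and 3.51 in KO (limma adjusted p = 0.222). The genotypes overlapped for *Usp1* and not for *Usp53*, and neither was called. *Usp39* stood at 8.61, 9.41 and 11.1 in WT and 11.3, 9.43 and 11.3 in KO, a change of 0.13 ± 0.32 (limma adjusted p = 0.840). Its genotypes overlapped in polysomes, and its KO mean, 10.7 FPKM, lay above its WT mean of 9.71.

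Leaving out libraries changed the RNP count. It dropped from 11 to 5 without KO RNP replicate 1, to 6 without replicate 2 and to 7 without replicate 3. *Uchl1*, *Usp1*, *Usp39*, *Usp51* and *Usp53* were called in every fit that tested them, although *Usp51* no longer passed the filter once a WT RNP library was left out. The *Usp14* call was lost whichever library was left out, that of *Otub1* whichever but WT RNP replicate 2, those of *Uchl3* and *Usp22* without KO RNP replicate 1, 2 or 3, that of *Usp31* without KO RNP replicate 1 or 2, and that of *Otub2* without KO RNP replicate 1. The highest adjusted p over all alternatives was 0.158 for *Usp14*, 0.172 for *Otub1*, 0.0774 for *Uchl3*, 0.0797 for *Usp22*, 0.0791 for *Usp31* and 0.0645 for *Otub2*.

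**Figure D2:**
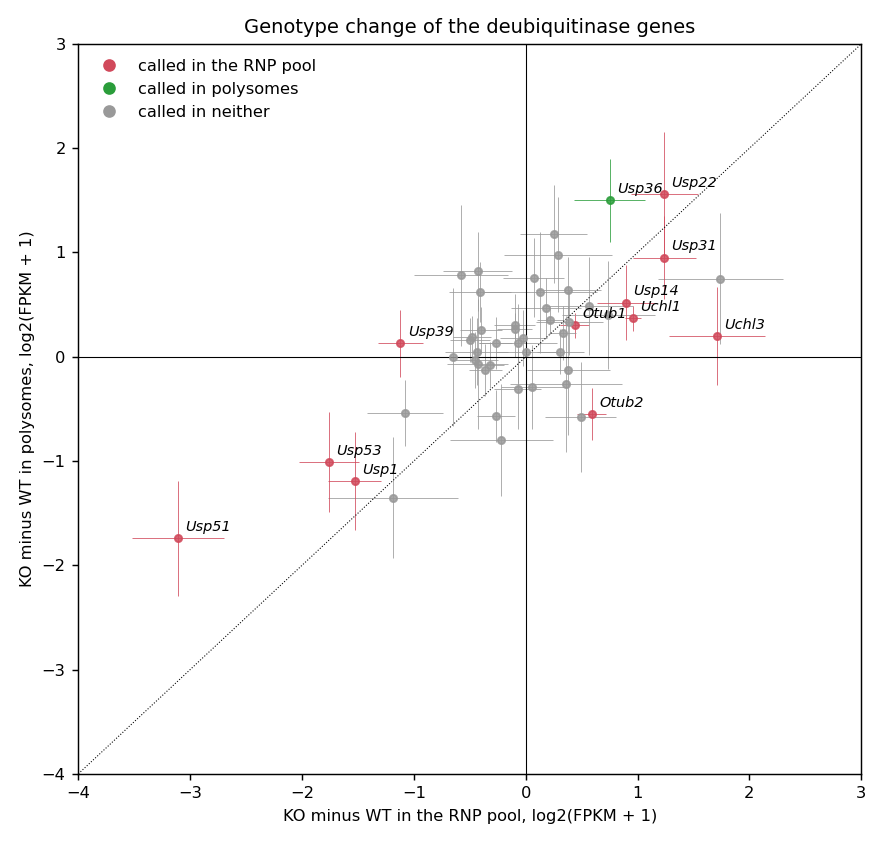
KO minus WT difference in log2(FPKM + 1) of each gene tested in both pools, RNP pool on the x axis and polysomes on the y axis, with SE bars and a dotted line of equal change. *Usp51*, *Usp53*, *Usp1* and *Usp39* lie to the left, the 7 genes that rose lie to the right, and *Usp36* is the single gene called in polysomes.

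Whether the polysome-to-RNP ratio of FPKM depended on genotype was asked with the genotype-by-pool interaction, fitted to the 12 libraries together. FPKM is scaled within each pool, so this ratio does not measure the fraction of an mRNA that is on polysomes. None of the 57 genes tested was called with limma, and 0.237% of 10949 genes were called in all (0.0822% with a higher and 0.155% with a lower ratio in KO). At an unadjusted p under 0.05 there were 10 of the 57, of which 7 had a higher polysome-to-RNP ratio in KO and 3 a lower one. Over all 10949 genes there were 1220, 605 with a higher and 615 with a lower ratio. The change was above 0 for 63.2% of the 57 genes and for 52.4% of all genes, with medians of 0.26 and 0.04. The smallest adjusted p was that of *Uchl1*, 0.127, at a log2 change of -0.59 ± 0.14 (SE). Leaving out KO polysome replicate 1, its highest library, brought *Uchl1* under the threshold as the only deubiquitinase gene called in that fit, in which 22 genes were called in all.

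*Otub2* and *Usp39* came next, each with an adjusted p of 0.144, and they moved in opposite directions. *Otub2* read 104, 118 and 104 FPKM in WT polysomes, all above the WT RNP libraries, and 81.8, 98.9 and 49.1 in KO polysomes, all below the KO RNP libraries (ratio change -1.14 ± 0.29, SE). *Usp39* lay 3.65-fold lower in polysomes than in the RNP pool of WT and 1.48-fold lower in KO (ratio change 1.24 ± 0.32, SE). These differences between genotypes did not pass the test.

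In WT oocytes 8 of 55 genes differed between polysomes and the RNP pool (14.5%), against 14.7% of 9574 genes. The libraries of the pools did not overlap for 19 of the 55 genes, 34.5%, against 34.6% of all genes. Higher in polysomes were 3 genes (5.5%, against 7.97% of all genes), namely *Uchl1*, *Usp15* and *Otub2*. *Uchl1* was 3.43-fold higher, at 1962 ± 111 against 572 ± 38.4 FPKM (SD, n = 3 each, log2 difference 1.78 ± 0.09, limma adjusted p = 8.7e-06). *Usp15*, which acts with the COP9 signalosome and on SMAD proteins, read 27.9, 30.2 and 25.4 FPKM in polysomes and 12.7, 14.3 and 14.1 in the RNP pool (log2 difference 0.97 ± 0.25, limma adjusted p = 0.0340). *Otub2* was 1.57-fold higher in WT polysomes (limma adjusted p = 0.0307).

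Lower in WT polysomes were *Usp10*, *Usp21*, *Usp28*, *Usp39* and *Usp45*, 9.1% of the 55 against 6.72% of all genes. *Usp10*, which binds G3BP1 and acts on p53, read 41.6, 38.8 and 42.5 FPKM in polysomes and 95.2, 109 and 103 in the RNP pool, a 2.50-fold difference (log2 -1.30 ± 0.16, limma adjusted p = 0.00146). *Usp21* read 44.8, 25.4 and 32.3 in polysomes and 69.7, 76.6 and 81.6 in the RNP pool (log2 -1.16 ± 0.24, limma adjusted p = 0.0128). *Usp28* read 46.1, 37.2 and 46.4 in polysomes and 80.1, 86.5 and 110 in the RNP pool (log2 -1.07 ± 0.20, limma adjusted p = 0.00873). The groups of these 3 genes did not overlap. *Usp39* had the largest difference of the genes lower in polysomes and above 0 in both pools, at -1.76 ± 0.27 (SE, limma adjusted p = 0.00337). *Usp45*, a relative of *Usp16*, was listed at 0 in the 3 WT polysome libraries and at 1.82, 2.22 and 5.05 FPKM in the RNP pool, through which alone it entered the test (limma adjusted p = 0.0323). The WT count fell to 5 without WT polysome replicate 1 and without WT RNP replicate 1, 2 or 3. *Uchl1*, *Usp10*, *Usp28* and *Usp39* were called each time. The call of *Usp21* was lost without WT RNP replicate 3, that of *Usp15* whichever library was left out, that of *Otub2* whichever but WT RNP replicate 3, and that of *Usp45* without WT polysome replicate 1, 2 or 3. Once a WT RNP library was left out, *Usp45* no longer passed the filter. The highest adjusted p over all alternatives was 0.0566 for *Usp21*, 0.111 for *Usp15*, 0.124 for *Otub2* and 0.0612 for *Usp45*. For *Usp28* it was 0.0514, and its call was lost in the fit without the intensity trend.

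In KO oocytes the same comparison called 23 of 54 genes (42.6%), against 29.2% of 9851 genes. The libraries of the pools did not overlap for 35 of the 54 genes, 64.8%, against 44.2% of all genes. Higher in polysomes were 17 of them (31.5%, against 15.5% of all genes), and 6 were lower (11.1%, against 13.8%). The median difference of the 54 genes was 0.18 against -0.04 for all genes. The representative transcripts of the tested deubiquitinase genes had a median length of 4434 bases, against 2844 for all genes tested, and the part of length in these counts was not tested. Replicate libraries correlated at 0.883 to 0.885 in WT polysomes and 0.907 to 0.932 in the WT RNP pool. In KO they correlated at 0.933 to 0.936 and 0.960 to 0.962. The part of this spread in the larger KO counts was not tested. The KO count dropped to 14 without KO RNP replicate 2 and to 14 without KO RNP replicate 3, and stood at 21 without KO polysome replicate 2. Of the 23, 5 were also called in WT and all 5 in the same direction (*Uchl1* and *Usp15* higher, *Usp10*, *Usp21* and *Usp28* lower). How many of all genes were called in both genotypes was not counted, so these 5 have no background. Among the 53 genes tested in both genotypes, 33 had a higher polysome-minus-RNP difference in KO than in WT. This stands beside 52.4% of the 10949 genes in the interaction fit. No single one of the 53 passed the interaction test.

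**Figure D3:**
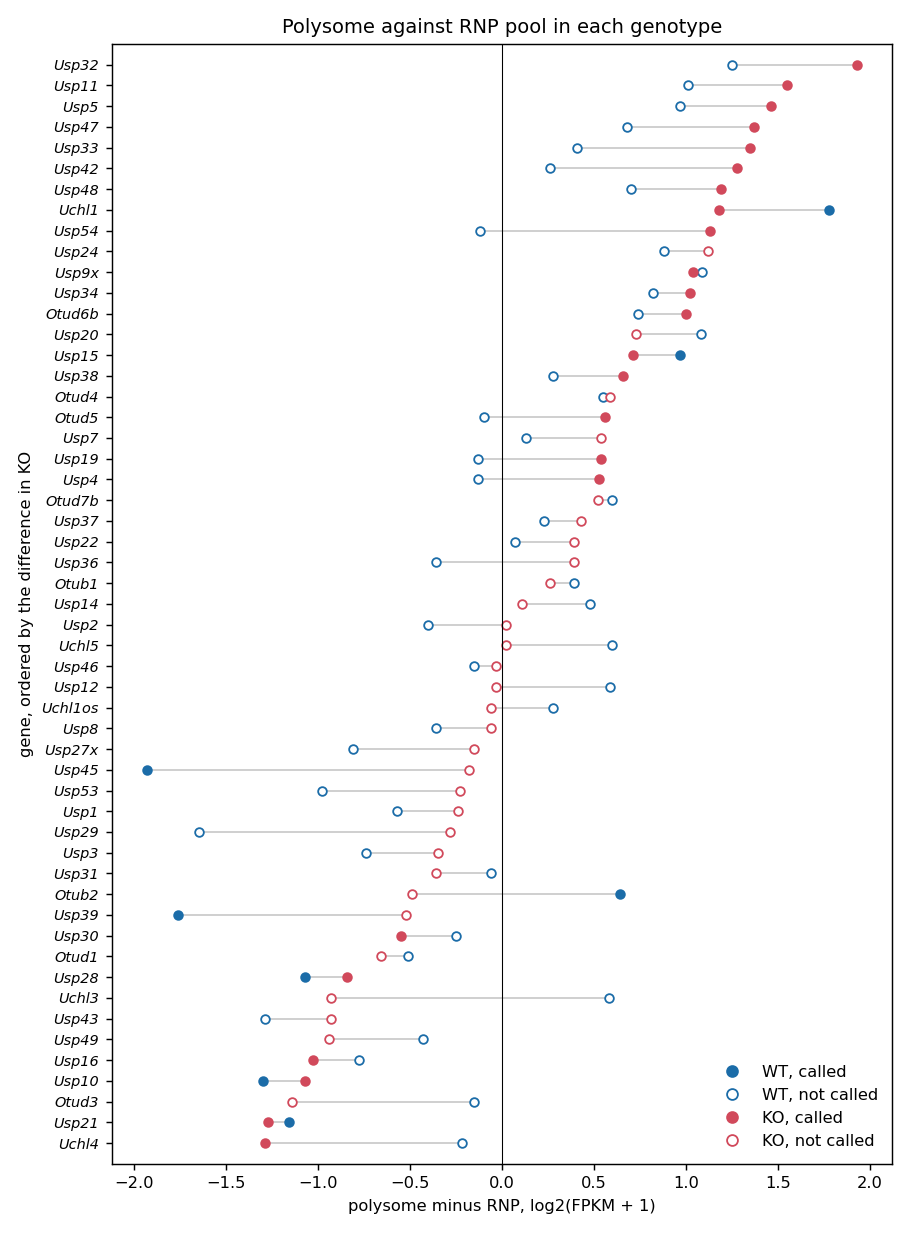
Polysome minus RNP difference in log2(FPKM + 1) of the 53 genes tested in both genotypes, WT in blue and KO in red, filled where called. *Uchl1* is filled and to the right in both genotypes, *Usp10*, *Usp21* and *Usp28* are filled and to the left in both, and 33 genes have the KO point to the right of the WT point. Of all genes in the interaction fit, 52.4% had a higher ratio in KO.

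The large KO differences belonged to enzymes of several roles. *Usp5* read 18.3, 20.0 and 20.8 FPKM in KO polysomes and 5.35, 6.79 and 7.57 in the KO RNP pool, a 3.00-fold difference (log2 1.46 ± 0.23, limma adjusted p = 0.0014). In WT it read 23.9, 12.2 and 23.3 against 8.46, 8.13 and 11.2, also without overlap, but missed the threshold (log2 0.97 ± 0.36, adjusted p = 0.110). Of 6 enzymes of genome maintenance tested in KO, 3 were higher in polysomes, 1 (*Usp28*) was lower and 2 were not called, beside 15.5% and 13.8% of all genes. In WT, where replicates correlated less, 0 of the 6 were higher and 1 (*Usp28*) was lower, beside 7.97% and 6.72% of all genes. The interaction called 0 of the 6 (0 at an unadjusted p under 0.05), beside 0.237% of all genes. *Usp47*, an enzyme of base excision repair, read 25.1, 22.9 and 23.9 against 8.77, 9.15 and 8.01 in KO (log2 1.37 ± 0.20, limma adjusted p = 0.000892). Its WT polysome libraries ran from 7.59 to 22.6 FPKM and overlapped the WT RNP libraries. *Usp11*, a relative of *Usp4* linked to DNA repair, stood at 7.15, 10.2 and 10.3 against 1.86, 3.38 and 2.25 in KO (log2 1.55 ± 0.32, limma adjusted p = 0.0058). Its WT levels, 14.2, 12.7 and 14 against 4.59, 6.91 and 7.63, did not overlap either. That WT difference, 1.01 ± 0.35, was not called (limma adjusted p = 0.0897). *Usp48*, the third of those that were higher in KO polysomes, stood at 10.1, 15.8 and 9.27 against 5.59, 4.14 and 3.74 in KO (limma adjusted p = 0.0162).

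Of 7 enzymes of membranes and endosomes tested in KO, 4 were higher and 1 lower in polysomes, beside 15.5% and 13.8% of all genes. In WT, where replicates correlated less, none of the 7 was called with limma (2 at an unadjusted p under 0.05), beside 14.7% of all genes. The interaction called none of the 7 (1 at an unadjusted p under 0.05), beside 0.237% of all genes. *Usp32* stood at 7.74, 19.9 and 15.3 FPKM against 3.90, 1.78 and 2.94 (log2 1.93 ± 0.39, limma adjusted p = 0.00545), the largest difference among the called genes. *Usp33* stood at 19.0, 31.2 and 20.9 against 7.89, 9.30 and 8.32 (log2 1.35 ± 0.24, limma adjusted p = 0.00311), although 44.0% of its exonic bases overlap another gene. *Usp9x* stood at 14.4, 13.9 and 12.3 against 6.42, 6.04 and 5.76 (log2 1.04 ± 0.23, limma adjusted p = 0.00922). Its WT levels, 9.18, 10.1 and 12.7 against 4.75, 3.46 and 5.19, gave a difference of 1.09 ± 0.38 that was not called (adjusted p = 0.0902). The endoplasmic reticulum enzyme *Usp19* stood at 39.6, 37.6 and 40.5 against 24.3, 26 and 30 (limma adjusted p = 0.0305). *Usp30*, which sits in the outer mitochondrial membrane and restrains mitophagy, lay the other way, at 45.5, 32.4 and 38.8 against 58.3, 59.7 and 53.0 (log2 -0.55 ± 0.16, limma adjusted p = 0.0308).

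The other genes higher in KO polysomes ranged from 0.53 to 1.28 on the log2 scale. *Usp42*, a relative of *Usp36*, read 20.4, 22.2 and 20.4 FPKM against 7.42, 6.44 and 10.7 (1.28 ± 0.24, SE, limma adjusted p = 0.00373). *Usp38* read 79.8, 85.2 and 82.1 against 51.6, 47.8 and 56.7 (0.66 ± 0.13, SE, adjusted p = 0.00449), with 24.9% of its exonic bases shared with *Gm9725* on the opposite strand. *Otud6b*, an OTU enzyme linked to protein synthesis, read 28.9, 24.0 and 33.8 against 16.5, 12.9 and 12.5 (1.00 ± 0.21, SE, adjusted p = 0.00687). *Uchl1* was 2.29-fold higher in KO polysomes (1.18 ± 0.11, SE, adjusted p = 6.77e-05). *Usp54*, *Usp34*, *Usp15*, *Otud5* and *Usp4* completed the 17, at 1.13 (adjusted p = 0.0199), 1.02 (0.0243), 0.71 (0.0214), 0.56 (0.0474) and 0.53 (0.0427).

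Of the 6 genes lower in KO polysomes, *Usp21* had the smallest p. It read 42.6, 42.8 and 33.0 FPKM in KO polysomes and 98.8, 91.1 and 97.9 in the KO RNP pool (log2 -1.27 ± 0.15, limma adjusted p = 0.000249). *Usp10* read 32.0, 36.7 and 48.7 against 77.2, 92.9 and 76.8 (log2 -1.07 ± 0.18, limma adjusted p = 0.002). *Usp28* read 48.4, 44.5 and 28.0 against 65.9, 71.2 and 76.4 (log2 -0.84 ± 0.21, limma adjusted p = 0.0140). *Usp16* read 8.09, 4.82 and 7.27 against 12.6, 16.0 and 15.0 (log2 -1.03 ± 0.26, limma adjusted p = 0.0176). Of 8 chromatin enzymes tested in KO, *Usp16* and *Usp21* were lower in polysomes, beside 13.8% of all genes. The other 6 were not called, while 15.5% of all genes were higher. *Uchl4* read 2.77, 1.71 and 1.39 against 4.61, 8.02 and 6.05 (limma adjusted p = 0.0216), with the same doubt over its split from *Uchl3*. The order of the pools for *Usp10*, *Usp21* and *Usp28* was thus that of WT.

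Single libraries decided several of these calls. *Uchl1*, *Usp5*, *Usp9x*, *Usp10*, *Usp11*, *Usp21*, *Usp32*, *Usp33*, *Usp38*, *Usp42*, *Usp47* and *Otud6b* were called in KO whichever library was left out. Without KO RNP replicate 3 the calls of *Usp28*, *Usp15*, *Usp16*, *Usp48*, *Usp34*, *Usp30*, *Uchl4*, *Otud5* and *Usp4* were lost. Without KO RNP replicate 2 those of *Usp16*, *Usp48*, *Usp19*, *Usp34*, *Usp30*, *Usp54*, *Uchl4*, *Otud5* and *Usp4* were lost, and without KO RNP replicate 1 those of *Usp19*, *Usp34*, *Usp30*, *Usp54*, *Otud5* and *Usp4*. KO polysome replicate 1 decided *Otud5* and *Usp4*, replicate 2 *Usp30*, *Usp54* and *Otud5*, and replicate 3 *Usp15*, *Usp19*, *Usp30*, *Usp34*, *Uchl4* and *Usp4*. The highest adjusted p that these genes reached under any alternative lay between 0.0535 (*Usp28*) and 0.168 (*Otud5*).

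**Figure D4:**
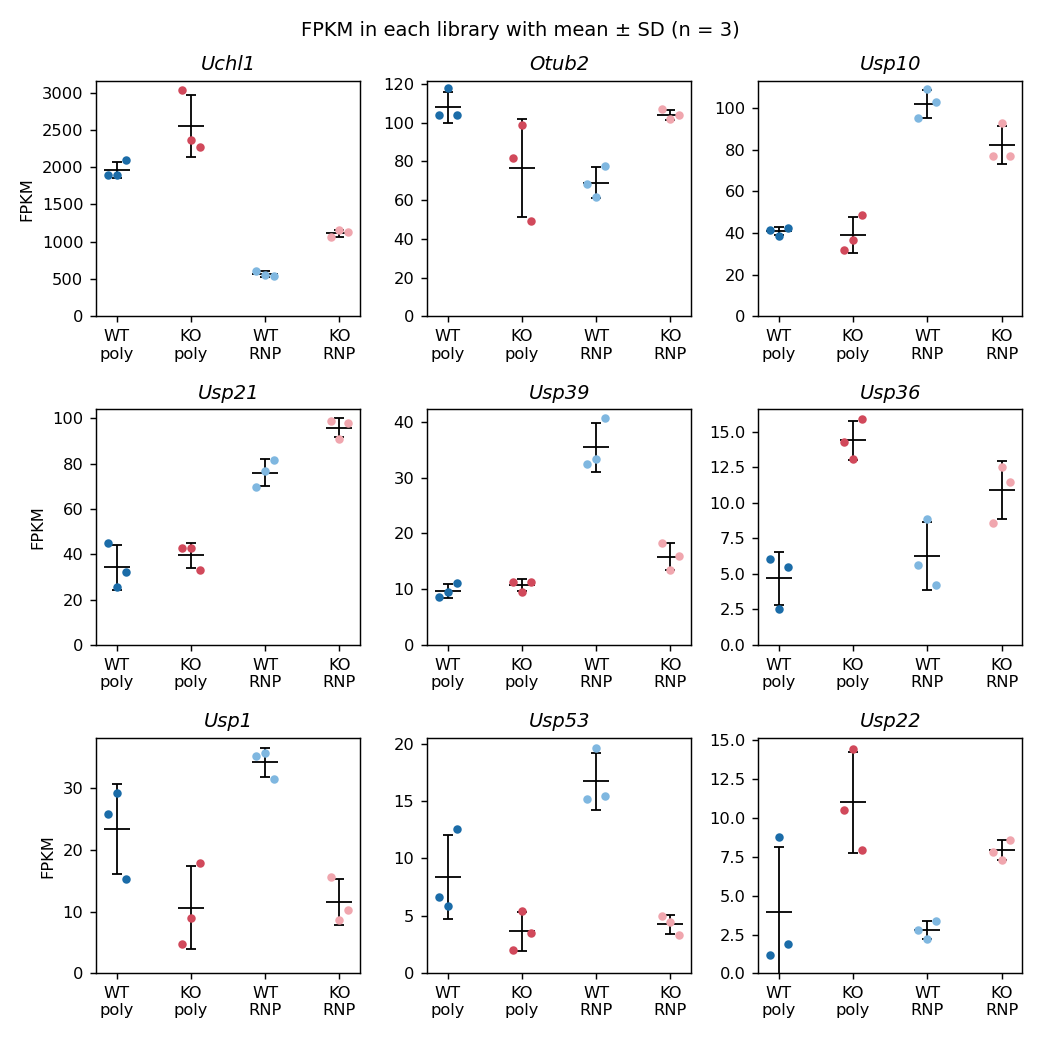
FPKM of 9 genes in each library, with the mean and SD of the 3 libraries of each pool and genotype in black (the lower SD bar of *Usp22* in WT polysomes is cut at 0). *Uchl1* is higher in polysomes and rises in the KO RNP pool to 1116 FPKM, and *Usp10*, *Usp21* and *Usp39* are higher in the RNP pool. The *Otub2* pools lie in opposite order in WT and KO. Its KO pool difference (limma adjusted p = 0.132) and its interaction (limma adjusted p = 0.144) were not called.

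The genes with no call in any comparison included *Usp46* and *Usp7*. *Usp46* differed between genotypes by 0.35 ± 0.13 (SE, limma adjusted p = 0.131) in polysomes and 0.22 ± 0.12 (adjusted p = 0.206) in the RNP pool, and its pools differed by no more than 0.15 in size. *Usp7* read 61.0, 57.0 and 41.2 FPKM in WT polysomes, 42.1, 63.0 and 71.6 in KO polysomes, 48.3, 44.4 and 51.0 in the WT RNP pool, and 41.0, 36.3 and 41.0 in the KO RNP pool. Its RNP libraries did not overlap between genotypes, at an adjusted p of 0.221. *Usp6nl*, the GTPase-activating protein, ranged from 0 to 2.72 FPKM.

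Other genes of the ubiquitin system were read from lists. Of 17 deubiquitinases and related proteases of other names tested in polysomes, none was called with limma (3 at an unadjusted p under 0.05), beside 10.4% of all genes. In the RNP pool 4 of 17 rose, namely *Uspl1*, *Zufsp*, *Psmd14* and *Stambpl1*, beside 10.5% of all genes. *Stambpl1*, at 0.609, 0 and 0 FPKM in WT and 2.87, 2.15 and 2.91 in KO, was tested only through its KO libraries. *Uspl1*, a protease of SUMO rather than of ubiquitin, read 2.61, 0.714 and 2.64 FPKM in the WT and 22.4, 13.3 and 21.7 in the KO RNP pool (limma adjusted p = 0.00139). *Psmd14*, the deubiquitinase of the proteasome lid, read 4.05, 4.02 and 6.73 in WT and 17.7, 12.8 and 10.6 in KO (limma adjusted p = 0.0164). Between pools these genes showed no call with limma in WT (5 of 17 at an unadjusted p under 0.05), beside 14.7% of all genes. In KO 5 of 17 were higher in polysomes, beside 15.5% of all genes.

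The mRNAs of partner proteins changed in both directions. *Wdr20*, an activator of USP46 and USP12, read 184, 253 and 270 FPKM in WT polysomes and 33.2, 65.6 and 76.5 in KO polysomes (log2 -2.06 ± 0.30, limma adjusted p = 0.00588). In the RNP pool it read 369, 429 and 442 in WT and 99.3, 76.7 and 116 in KO (log2 -2.09 ± 0.15, limma adjusted p = 5.19e-05). The shared partner *Wdr48* differed by -0.01 ± 0.27 and -0.02 ± 0.21 in the pools, with no call. *G3bp1*, which binds USP10, rose in both pools, by 1.11 (limma adjusted p = 0.0386) and 0.90 (adjusted p = 0.00869). *G3bp2* rose in polysomes by 0.85 (limma adjusted p = 0.00296) and was not called in the RNP pool (0.26, adjusted p = 0.141). *Uhrf1* rose in both pools, by 0.73 (limma adjusted p = 0.00768) and 0.44 (adjusted p = 0.007). Over the partner list, 3 of 12 rose and 1 fell in polysomes, beside 5.64% and 4.73% of all genes. In the RNP pool 2 of 13 rose and 2 fell, beside 10.5% and 10.2% of all genes.

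The polyubiquitin gene *Ubb* rose in the KO RNP pool. It read 3059, 2869 and 2674 FPKM in the WT RNP pool and 4365, 4307 and 4167 in the KO RNP pool (log2 0.58 ± 0.06, limma adjusted p = 0.000254). Like *Uchl1*, it was higher in WT polysomes than in the WT RNP pool (limma adjusted p = 0.000888), and its genotypes differed by 0.28 ± 0.08 (SE) in polysomes, which missed the threshold (adjusted p = 0.0566). Among 31 E1 and E2 enzymes tested in each pool, 2 rose and 2 fell in polysomes (5.64% and 4.73% of all genes), and 8 rose and 2 fell in the RNP pool (10.5% and 10.2% of all genes). *Ube2v1* rose in both pools, by 2.16 on the log2 scale in polysomes (limma adjusted p = 0.00198) and by 1.54 in the RNP pool (adjusted p = 0.00161). *Ube2d3* rose in both too, by 0.66 (limma adjusted p = 0.0215) and 0.83 (adjusted p = 0.000141). The E2 enzyme *Ube2t* fell in both pools, by 1.17 on the log2 scale in polysomes (limma adjusted p = 0.00368) and by 1.14 in the RNP pool (adjusted p = 0.000813).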

How the data were processed

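Groups were taken from the sample labels, by genotype and gradient pool. The deposited FPKM values, 1 per gene symbol and library, were made by the authors with TopHat2 2.0.13 on mm10 and Cufflinks 2.2.1, and hold no read counts. The fold, p-value and q-value columns of the authors' own group comparisons were not used. The densest sucrose is given as 50% by the labels and 55% by the methods, and sources also name different library kits.

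Differences were tested with limma 3.58.1 (R 4.3.3) with an intensity trend, on log2(FPKM + 1), for genes with at least 1 FPKM in at least 3 libraries, with Benjamini-Hochberg adjustment over all genes. Tables were made with pandas 2.3.3 and numpy 2.4.6 under Python 3.11.15, and figures with matplotlib 3.10.9. The fit of KO against WT in polysomes was tested on simulated data, and the other comparisons were not. Positions, transcripts and exon overlap came from GENCODE M21 (GRCm38), in which all 71 symbols matched. The smallest FPKM steps gave an estimate of depth, taking the effective length as the transcript less 200 bases. With FPKM alone, no counting interval was given.

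Members, lists and alternatives were chosen with earlier results of these data known. The genes named were those called in any comparison, the 10 of highest mean, 11 of known role (*Uchl1*, *Uchl3*, *Uchl4*, *Uchl5*, *Usp14*, *Usp7*, *Usp9x*, *Usp16*, *Usp22*, *Usp44*, *Usp6nl*), the 3 largest uncalled changes in each comparison of genotypes, and up to 4 called genes of each list. *Wdr48*, *Cyp19a1* and the genes given only by their level were named after their values were seen. Results of 1 list are not reported here in full. Alternatives were pseudocounts of 0.1 and 5, filters at 5 FPKM or none, rescaling to 1 median, quantile normalization, a replicate block, a fit without the intensity trend, and leaving out each library.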

Additional observations from a re-analysis of the deposited data

How the results depend on the processing

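Of the 43 changes called, 43 kept their direction under every alternative and 20 kept their call, 27 when the fits without 1 library are set aside. In polysomes the KO against WT count of 1 became 0 with a pseudocount of 0.1, without the filter, with the replicate block and without the intensity trend, and 2 with quantile normalization, which added *Usp51*; it was 0 to 1 with 1 library left out. The RNP count of 11 was 5 to 10 with 1 library left out and 9 with the replicate block. The ratio count of 0 stayed at 0 except for 1 (*Uchl1*) without KO polysome replicate 1, a range of 0 to 1. The WT count between pools, 8, became 5 with the replicate block and 5 without the trend, and was 5 to 7 with 1 library left out. The KO count of 23 was 14 to 24 with 1 library left out and 20 with the block. Fits without a library have fewer samples; for the other changes the cause was not tested. The deviations of the 18 same-numbered pairs correlated at -0.0207 to 0.0255, so no common effect of the replicate number was seen. This cannot tell whether same-numbered pools of a genotype came from the same lysate. With such pools blocked together, the interaction called 0 of 10949 genes, against 26 without the block. FPKM of low genes rests on few fragments, an estimated 4 to 47 for *Uchl3*.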
